A study of Pogonatum aloides with 7 samples.

Results

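The members described here are the 54 unigenes of the moss Pogonatum aloides whose expression was higher at each successive capsule stage than at the one before. They were selected on the measured values themselves. A unigene had to be listed in all 6 libraries, to average at least 5 RPKM over them, and to have a strictly higher RPKM at each of the 4 steps from capsule stage 1 to stage 5. Of 74566 unigenes, 18218 were listed in every library, 9601 of these reached the mean, and 54 of the 9601 (0.562%) met the rule. RPKM is the number of reads scaled to unigene length and to the reads of the library, so levels can be compared between unigenes of different length. A unigene is a sequence assembled from RNA reads without a genome.

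The libraries were capsules of stages 1, 2 and 3, labelled small, stage 4, labelled middle, stage 5, labelled big, and young gametophytes, labelled seedlings, which the series uses as the control. All were wild type, with no treatment named, and every group was 1 library. The labels give neither the number of plants behind a library nor the age of a capsule in days. The order of the stages therefore rests on the labels, and no difference between stages has a replicate check.

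In mosses the leafy plant is the haploid gametophyte, and the diploid sporophyte grows on it, is fed by it and forms its spores in the capsule. As a capsule matures, its wall and sterile tissues differentiate, spore mother cells pass through meiosis, and spores are formed and walled. A transcript whose level follows the stages in order could come from any of these tissues. In whole capsules, more cells of a type and more RNA per cell cannot be told apart. The files pair no identifier with a gene name, so the members are described by level and profile, and no function is given to any of them. For the same reason the labelled organs could not be checked against marker genes.

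Read numbers were worked back from the RPKM values and gave library totals from 5458335 to 5752394 reads for the capsules and 3821669 reads for the gametophyte. Across the 9601 unigenes the 2 most similar pairs of libraries were not neighbouring stages. Pearson's r of log2(RPKM + 1) reached 0.90 for the pair of stages 2 and 4 and 0.89 for that of stages 1 and 3. It was 0.66, 0.76 and 0.70 at the first 3 steps from one stage to the next, and 0.82 for stages 4 and 5. These are descriptions across unigenes, which are not independent replicates. In 4093 of the 9601 unigenes (42.6%), stages 1 and 3 lay both below or both above all of stages 2, 4 and 5. The 54 members by construction do not show that arrangement.

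A strict order of 5 values can take 120 forms, and the rising order was neither frequent nor rare among them. It was held by 54 of the 9601 unigenes, against a median of 54.5 per order, and 60 orders were more frequent. The most frequent order, with stage 1 lowest, followed by stages 3, 5, 4 and 2, had 392 unigenes. The opposite of the rising order, lower at every step, was held by 17. The number of members was thus that of a middling order.

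**Figure D1:**
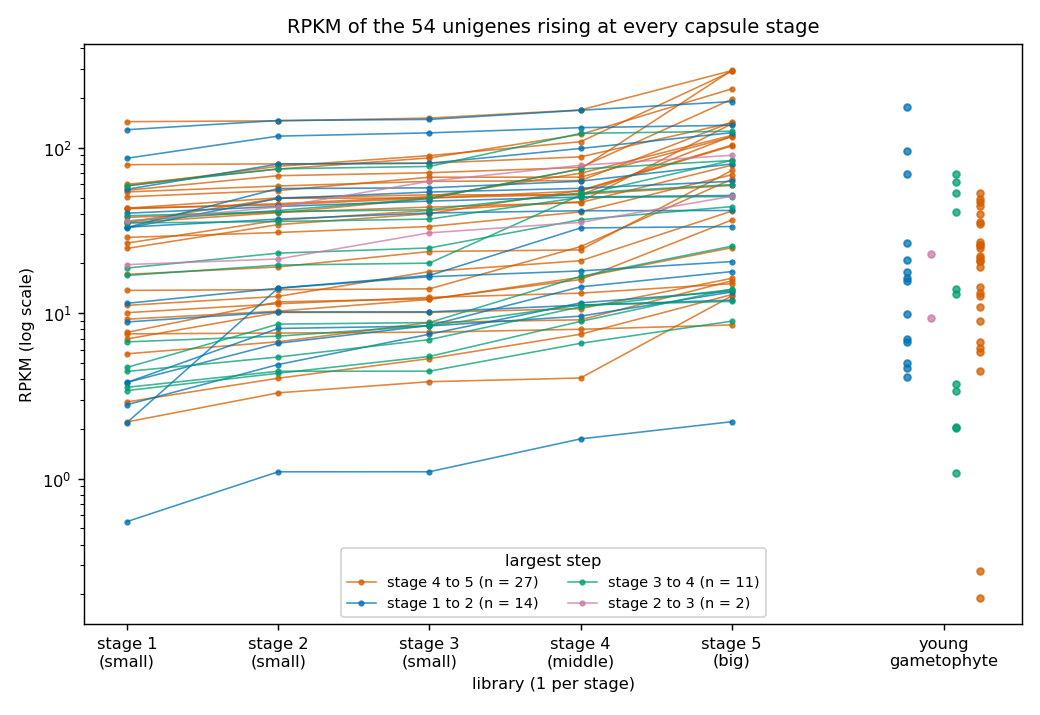
RPKM of each of the 54 unigenes (log axis) in the 5 capsule libraries, joined by lines, and in the young gametophyte, shown as points at the right, coloured by the step with the largest fold. The lines lie between 0.55 and 144 RPKM in stage 1 and between 2.21 and 293 RPKM in stage 5, and the 27 orange lines are steepest at the last step in these values as deposited.

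The members covered a wide range of levels. In stage 1 their RPKM ran from 0.55 to 144 with a median of 25.6, and in stage 5 from 2.21 to 293 with a median of 59.5. Their medians in stages 2, 3 and 4 were 32.5, 35.2 and 44.1 RPKM, and in the gametophyte the median was 17.0 RPKM. Together the 54 held 0.247%, 0.29%, 0.311%, 0.361% and 0.671% of the summed RPKM of the capsule libraries, taken in order of stage, and 0.162% of that of the gametophyte. The set was therefore a small part of each library. That stage 5 holds the largest share among the capsules follows from the rule, and stage 5 also has the lowest summed RPKM.

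The size of the overall difference varied from slight to more than 8-fold. The ratio of stage 5 to stage 1 ran from 1.13 to 15.3 with a median of 2.61. It was at least 2-fold for 40 members and at least 4-fold for 16. Among all 9601 unigenes the shares past these folds were 19.4% and 7.00%, which are given for scale only because the rule used this contrast. The 95% exact counting interval of the ratio lay above 1 for 50 members, against 37.9% of the 9601, again for scale only. Such intervals come from the reads and cover counting error only, not the variation between capsules of one stage.

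The 10 members with the highest mean were led by Unigene22660 with 144, 145, 151, 169 and 292 RPKM from stage 1 to stage 5 against 12.7 RPKM in the gametophyte. Its first 4 capsule values lay close together and the big capsules stood apart. Unigene23674 had 128, 146, 148, 168 and 190 RPKM, with 95.3 RPKM in the gametophyte, and Unigene989 had 86.4, 118, 123, 132 and 137 RPKM, with 16.4 RPKM in the gametophyte. Both had their largest fold at the first step, 1.14 and 1.36. The other 7 (Unigene25234, CL6537.Contig1, Unigene21273, CL10784.Contig2, Unigene24847, CL698.Contig6 and Unigene25661) had means of 79.9 to 112 RPKM over the 6 libraries.

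Of these, Unigene21273 was nearly flat over the small capsules, at 78.9, 79.9 and 80.6 RPKM, and reached 88.0 and 142 RPKM in stages 4 and 5. Unigene25661 also had its largest step last, with 55.3, 67.7, 70.6 and 76.0 RPKM in stages 1 to 4 and 196 RPKM in stage 5. It was less flat over the small capsules, with a first step of 1.23-fold and a counting interval from 1.12 to 1.34. CL698.Contig6 instead had 56.0 RPKM in stage 1, 79.6 and 80.6 RPKM in stages 2 and 3, and 98.9 and 123 RPKM in stages 4 and 5. The abundant members thus shared the order of the stages but not the stage at which the level changed.

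In the RPKM values as deposited, the step from stage 4 to stage 5 was most often the largest. It had the largest fold in 27 members, the step from stage 1 to stage 2 in 14, that from stage 3 to stage 4 in 11 and that from stage 2 to stage 3 in 2. The median folds of the 4 steps in order were 1.20, 1.09, 1.19 and 1.47, and with equal summed RPKM 1.18, 1.07, 1.14 and 1.67. The order of the steps differed under the other scalings, with medians of 1.31, 1.04, 1.31 and 1.25 after TMM factors (from a trimmed mean of log ratios) and of 1.27, 0.995, 1.41 and 1.25 after median-ratio factors. In 29 members a single step made up over 50% of the difference on the log scale, and in 19 of these it was the last. A fold of at least 2 occurred in 2 members at the first step, 0 at the second, 1 at the third and 10 at the last.

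**Figure D2:**
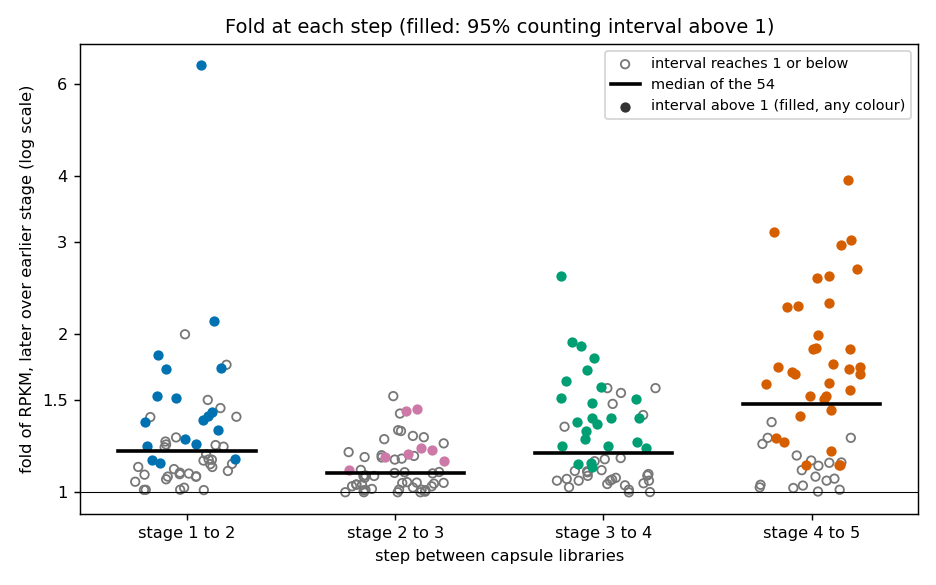
Fold of RPKM between successive capsule stages (log axis) for the 54 unigenes, 1 point per unigene and step, filled where the 95% exact counting interval lies above 1, with a bar at the median. In these values as deposited the second step has the lowest median, 1.09, and the last step the highest, 1.47, whereas after TMM factors the last step, at 1.25, lies below the first and the third, at 1.31 each, and after median-ratio factors below the third, at 1.41.

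Many single steps were small against counting error. Of the 216 steps of the 54 members, 85 had an interval above 1. By step these were 18, 8, 24 and 35 members. Of the 9601 unigenes, 37.4%, 38.7%, 32.0% and 38.5% had such an interval at the same steps. The 2 sets are not comparable here, because the rule had every member higher at each step. Of the 9601, only 4708, 5218, 4196 and 5259 were higher at the 4 steps in order. In 14 members at least 1 step had no more reads in the later library than in the earlier one, and the RPKM was higher only through the library total. These were 4 members with equal reads at the second step and 11 with equal or fewer reads at the third, where the stage 4 library is the shallowest of the capsules. In 11 members no step had an interval above 1, in 14 members 1 step did, in 20 members 2, in 5 members 3 and in 4 members all 4.

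The 4 members with every step above counting error were CL6537.Contig1, Unigene24847, CL7670.Contig1 and CL10832.Contig1. The intervals take the deposited scaling as given. CL7670.Contig1 lost the rising order after TMM factors and after median-ratio factors, whereas CL6537.Contig1, Unigene24847 and CL10832.Contig1 kept it. CL6537.Contig1, a contig of 2513 bases, measured 60.1, 74.2, 86.8, 120.3 and 227 RPKM from stage 1 to stage 5, and 47.1 RPKM was its gametophyte value. Its steps were 1.24-fold, 1.17-fold, 1.39-fold and 1.89-fold, and its overall ratio was 3.78 with an interval from 3.503 to 4.07. The last of its steps was the largest, with an interval from 1.78 to 2.001.

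Unigene24847 had the steepest last step of all members, 3.94-fold with an interval from 3.66 to 4.24. Its reads numbered 434, 500, 608, 873 and 3608 in stages 1 to 5 and 211 in the gametophyte. CL10832.Contig1, of 3290 bases, had 26.5, 36.4, 41.7, 47.2 and 139.5 RPKM in the capsules and 35.8 RPKM in the gametophyte, so that the gametophyte lay above stage 1 only. CL7670.Contig1, of 2349 bases, had 36.0, 41.7, 49.4, 74.3 and 83.7 RPKM and 53.1 RPKM in the gametophyte, which lay between stages 3 and 4. Its largest fold, 1.504, came with the middle capsules rather than the big ones.

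Ordered by the lower bound of the counting interval, the largest overall ratios after Unigene24847 began with Unigene18780, a short unigene of 319 bases. It had 4, 26, 31, 57 and 61 reads in stages 1 to 5, and its ratio of 15.3 had an interval from 5.68 to 58.0. Its first step, 6.499-fold, was the largest of any member at any step, and 4 reads in stage 1 stand behind it. CL10832.Contig1 followed with a ratio of 5.26 and an interval from 4.78 to 5.80.

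Unigene28512 had the largest step from stage 3 to stage 4, 2.58-fold, at 16.9, 19.5, 20.1, 51.8 and 83.8 RPKM, so that the small capsules lay together below the middle and the big ones. Unigene25234 had 58.7, 77.2, 89.5, 109 and 290 RPKM and Unigene851 had 13.7, 13.9, 14.03, 25.2 and 64.5 RPKM. The first was graded over the small capsules and the second was level there. Unigene2091 stood at 4.70, 8.59, 8.78, 16.7 and 25.4 RPKM, and Unigene24099 at 7.66, 11.7, 12.2, 15.96 and 36.6 RPKM. Unigene21773 differed from these in that stages 3 and 4 were nearly equal, at 23.6 and 24.1 RPKM, before 72.8 RPKM in stage 5. The largest second step, 1.53-fold, was that of Unigene20365 with 21 and 32 reads, and its interval reached below 1.

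**Figure D3:**
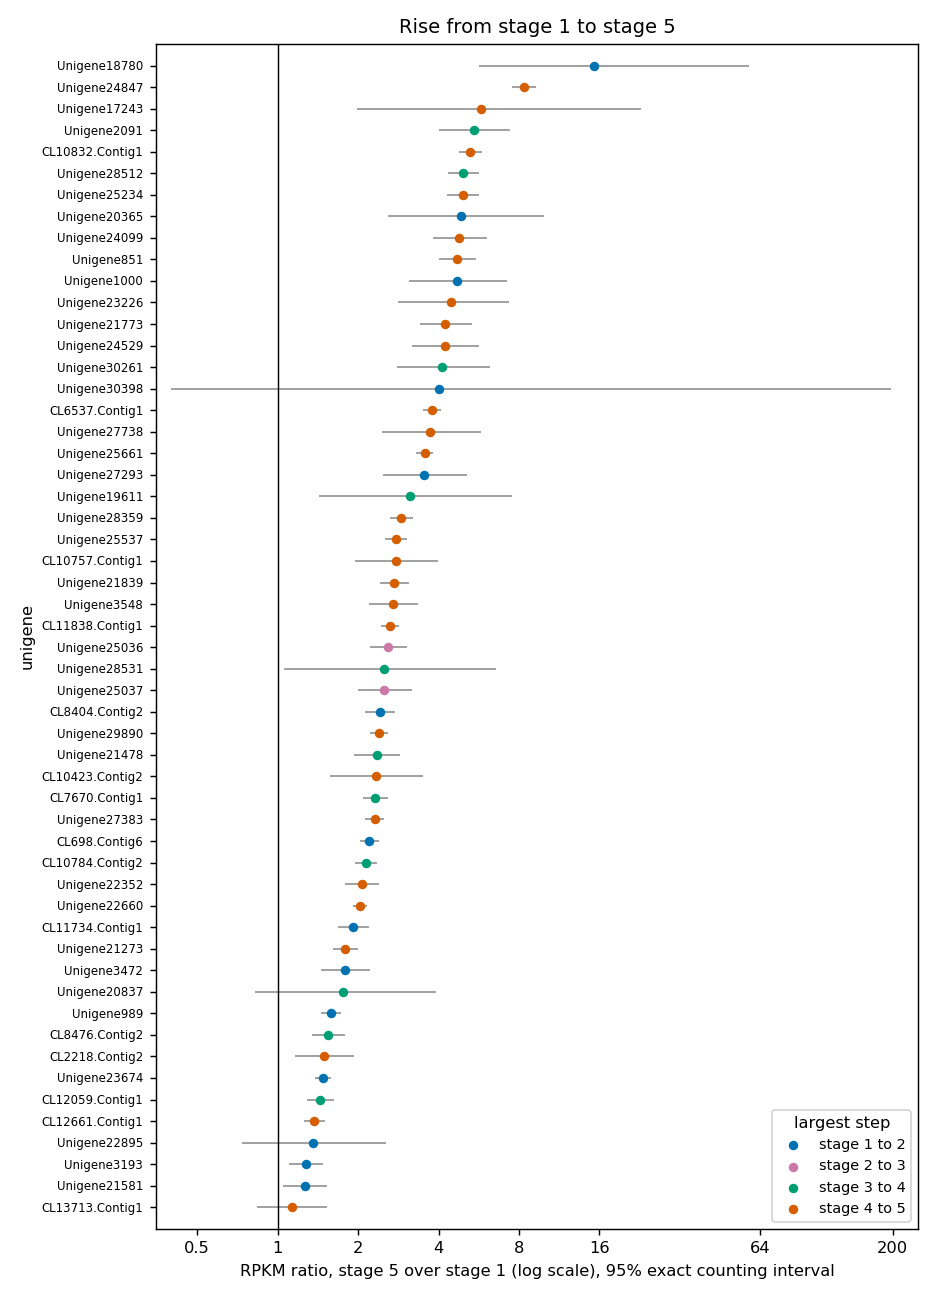
Ratio of stage 5 to stage 1 RPKM for each of the 54 unigenes (log axis) with its 95% exact counting interval, ordered by size and coloured by the step with the largest fold. The intervals of 50 unigenes lie above 1, and the widest, of Unigene30398, runs from 0.40 to 198.

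At the lower edge of the rule, Unigene28531 had the lowest mean, 5.004 RPKM, with 8, 10, 10, 14 and 20 reads in stages 1 to 5. Unigene17243, at a mean of 5.32 RPKM, had 4, 6, 7, 7 and 23 reads. Just outside, CL10949.Contig1 was also higher at every step, at 3.08, 3.43, 3.91, 4.74 and 5.59 RPKM, with a mean of 4.35 RPKM. CL5418.Contig1 likewise had a mean of 4.01 RPKM. The cut on the mean thus fell among unigenes of the same profile, and 59 unigenes listed in all libraries had the rising order below it.

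The condition of a strict rise was as fine. The smallest step inside the rule, 1.0005-fold, was that of Unigene21839 between stages 3 and 4, where its reads were 421 and 400. Unigene22895 and CL10423.Contig2 had equal reads in stages 2 and 3, 23 each and 55 each. Outside, 1821 unigenes of the 9601 were higher at 3 of the 4 steps, and they failed most often at the second step, with 894 unigenes, then at the third with 450, the first with 293 and the last with 184. For 340 of the 1821 the counting interval of the failing step included 1.

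The failing steps closest to equality were those of Unigene20484, CL3628.Contig1 and Unigene31018, each with equal reads in stages 1 and 2. Unigene20484 is a case of a steep late profile just outside the rule, with 1, 1, 3, 17 and 168 reads in stages 1 to 5. CL3628.Contig1 had a shallow one, with 132, 132, 140, 151 and 172 reads. Unigene31018 had 5, 5, 6, 12 and 15 reads, and reached the mean through 245 reads in the gametophyte.

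The scaling between libraries decided membership for most of the 54. The RPKM values of a library sum to 664529, 676997, 689757, 721917 and 636518 for stages 1 to 5, so a scaling to equal sums lowers the first 3 steps and raises the last. After it 36 of the 54 kept the rising order, after TMM factors 22 did, and after median-ratio factors 17. The numbers of all unigenes with the rising order were 45, 55 and 48, so the count hardly moved while its members changed. With TMM the second and the last step were the ones lost, and 34 and 36 of the 54 kept these, whereas all 54 kept the first and the third. Stage 5 remained above stage 1 in all 54 under each of the 3 scalings. This was fixed beforehand, because the rule chose on this contrast, the lowest ratio was 1.13 and the scalings treat stages 1 and 5 nearly alike.

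The rising order held under all 3 scalings for 14 members. They were CL10832.Contig1, CL6537.Contig1, Unigene1000, Unigene17243, Unigene19611, Unigene23226, Unigene24529, Unigene24847, Unigene25036, Unigene25234, Unigene25537, Unigene27738, Unigene30261 and Unigene3548. Their ratio of stage 5 to stage 1 ran from 2.59 to 8.35 with a median of 4.16. In RPKM as deposited, the last step was the largest in 10 of the 14, and 11 had at least a 1.1-fold difference at every step. Keeping the order under a scaling does not cover counting error. CL6537.Contig1, Unigene24847 and CL10832.Contig1 had all 4 step intervals above 1. Unigene19611, with 9, 11, 14, 21 and 28 reads, had 0, and Unigene17243, with 4, 6, 7, 7 and 23 reads, had 1. Unigene30261 is an example of an even course at a low level, at 3.41, 4.34, 5.48, 8.92 and 13.99 RPKM with 1.09 RPKM in the gametophyte.

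The second comparison asked how the members stood in the capsules against the young gametophyte, whose value the rule used only for being listed and in the mean. The gametophyte lay below stage 1, and so below every capsule library, in 34 members (63.0%), against 44.2% of the 9601 unigenes. It lay above stage 5, and so above every capsule library, in 3 members (5.56%), against 15.5%. In the other 17 it fell among the capsule stages. The capsule mean was at least 2-fold above the gametophyte in 32 members (59.3%, against 41.7% of the 9601), and the gametophyte was at least 2-fold above the capsule mean in 3 (5.56%, against 11.6%). Unigene30398 is among the 3 members in both counts. It met the minimum mean only through its gametophyte value, so the rule fixed its place. The 9601 also hold such unigenes, such as Unigene31018, so the shares of 15.5% and 11.6% include them. All these shares are descriptions of 1 gametophyte library and were not tested. They take each contig by itself, and the gametophyte stood elsewhere in the sums of some clusters, as given below.

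**Figure D4:**
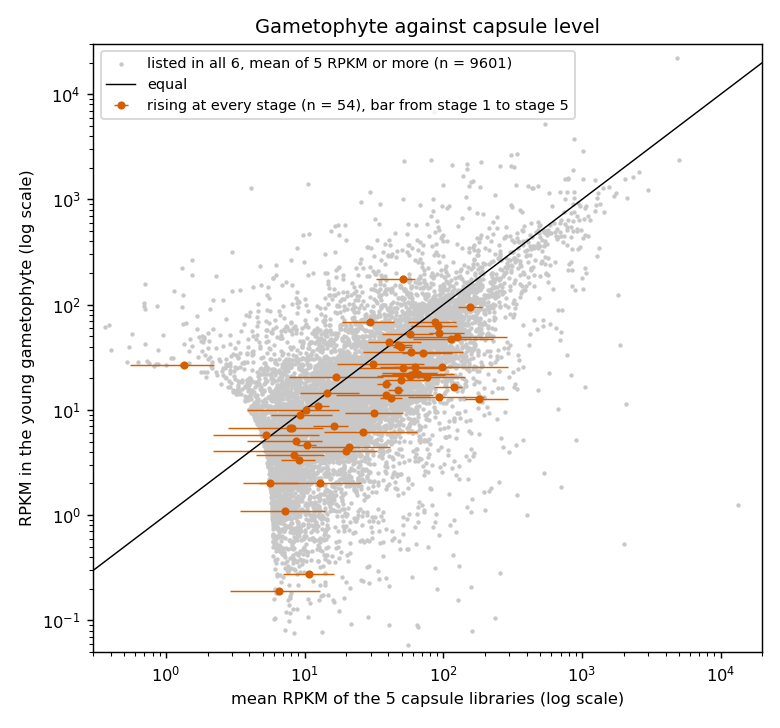
RPKM in the young gametophyte against the mean RPKM of the 5 capsule libraries (both log axes) for the 9601 unigenes in grey and the 54 rising unigenes in orange, with a bar from stage 1 to stage 5. For 34 of the 54 the whole bar lies to the right of the line of equal levels, and for 3 it lies to the left. Those 3 include Unigene30398, which met the minimum mean only through its gametophyte value.

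Of the 54, limma on log2(RPKM + 1) called 7 with a higher capsule level and 2 with a lower one, each with an adjusted p under 0.05. One of the lower calls, Unigene30398, met the minimum mean only through its gametophyte value, so the rule fixed its direction and nothing is read from it. Over all 66294 unigenes tested it called 2.51% higher and 27.6% lower, and over the 17586 tested that were listed in every library, 5.94% and 3.07%. The median ratio of the gametophyte to the capsule mean was 0.439 for the members and 0.600 for the 9601 unigenes with the same minimum mean. The gametophyte side is 1 library, and the test takes its spread from the 5 capsule stages whose values chose the members. A call therefore depends also on how flat a member is over the capsules, the p-values describe these libraries and not the organs, and a missing call does not show a smaller difference. The 7 higher calls had ratios of stage 5 to stage 1 of 1.26 to 2.32, with a median of 1.45, against a median of 2.76 for the 45 members not called.

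The higher calls were Unigene22660, Unigene989, CL10423.Contig2, CL12059.Contig1, Unigene3193, Unigene21581 and Unigene22895. Unigene22660 averaged 180.3 ± 63.5 RPKM over the capsule libraries (SD over 5 stages) against 12.7 RPKM in the gametophyte. The log2 fold change of capsules over gametophyte was 3.67. Unigene989 averaged 119 ± 19.8 RPKM against 16.4 RPKM, with a log2 fold change of 2.77. All 5 capsule libraries lay above the gametophyte in both. The other 5 had log2 fold changes from 1.01 (Unigene22895) to 3.17 (CL10423.Contig2).

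Unigene3193 shows how little such a member can change among the capsules, at 40.2, 44.2, 47.6, 50.3 and 51.5 RPKM against 15.6 RPKM in the gametophyte. Unigene21581 had 33.1, 37.0, 40.3, 41.6 and 41.8 RPKM against 17.7 RPKM. CL12059.Contig1 was similar, at 35.1, 35.8, 37.0, 50.1 and 50.7 RPKM against 13.0 RPKM. In each of the 3 the step up from the gametophyte to stage 1 was larger than the whole range of the capsules.

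The members lowest in the gametophyte relative to the capsule mean were CL10423.Contig2, Unigene23226 and Unigene22660. CL10423.Contig2 had 38, 55, 55, 55 and 88 reads in stages 1 to 5 and 1 read in the gametophyte. Its pooled capsule ratio was 39.1 with a 95% counting interval from 6.96 to 1550. Unigene23226 had 23, 32, 42, 56 and 102 reads against 1, a ratio of 34.3 with an interval from 6.10 to 1359, and was not called by limma. For both, the size of the difference is bounded by a single gametophyte read.

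The 2 lower calls were CL11734.Contig1 and Unigene30398, and Unigene21478 was the remaining member whose gametophyte value lay above every capsule value. CL11734.Contig1 had 32.7, 49.3, 53.96, 56.8 and 62.6 RPKM in the capsules and 175 RPKM in the gametophyte, with a log2 fold change of −1.79. Unigene21478 had 18.7, 23.1, 24.8, 36.7 and 44.1 RPKM against 69.2 RPKM, and was not called by limma. These 2 had values nearer to that of the gametophyte with each later stage, which the rule fixes for any member lying below the gametophyte throughout. Unigene30398 had 1, 2, 2, 3 and 4 reads in the capsules and 32 in the gametophyte, and was the only member whose capsule mean was below 5 RPKM, so that it met the mean through the gametophyte.

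These calls depended on the set tested. When only the 18218 unigenes listed in every library entered the fit, Unigene22660 and Unigene989 kept their higher calls, and the other higher calls were lost. Unigene30398, whose direction the rule fixed, kept its lower call. Limma-voom on the recovered reads called none of the members. Without stage 5, the median log2 fold change of the members was 0.78 rather than 1.08, a decrease that follows from the rule. Over all tested unigenes listed in every library it was 0.39 rather than 0.40. Without stage 2, stage 3 or stage 4, CL11734.Contig1 lost its call.

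The recovered lengths of the members ran from 311 to 5193 bases with a median of 1814, against a median of 1410 for the 9601. Contigs, which carry a cluster number shared with other contigs, made up 15 of the 54 (27.8%, against 36.9% of the 9601), and 39 were single unigenes. The 15 contigs belonged to 15 different clusters. In 6 of these the member was the only contig listed. The other 9 clusters held 19 further contigs, of which 0 had the rising order, 4 were higher in stage 5 than in stage 1, and 9 were read in the gametophyte only. Where contigs of a cluster are similar, reads could be split between them, and how such reads were counted is not given.

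The RPKM summed over a cluster was also higher at every step in 11 of the 15 clusters, 6 of them with the member alone. In the other 4, another contig changed the profile. CL10423.Contig2 stood at 6.98, 10.1, 10.1, 10.7 and 16.2 RPKM, whereas its cluster summed to 35.2, 10.1, 30.5, 10.7 and 16.2 RPKM. The other contig of that cluster had 54 reads in stage 1, 39 in stage 3 and 0 in stages 2, 4 and 5, and the summed level was lower in stage 5 than in stage 1. In the gametophyte the sum was 1.85 RPKM, below every capsule sum. The cluster of CL13713.Contig1 also went the other way, at 16.9 RPKM in stage 1 and 12.1 RPKM in stage 5. Its gametophyte sum, 39.9 RPKM, lay above every capsule sum, whereas the member alone was lower in the gametophyte than in every capsule library, at 6.69 RPKM. That member was the flattest of all, at 7.498, 7.58, 7.68, 7.99 and 8.49 RPKM.

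The clusters of CL2218.Contig2 and CL10757.Contig1 were higher in stage 5 than in stage 1 but not at every step. The former summed to 26.9, 37.8, 33.6, 33.5 and 41.9 RPKM, of which the member made up 30.1% to 39.5% in the capsules. The latter summed to 6.71, 6.72, 10.2, 9.34 and 15.7 RPKM. In the gametophyte the cluster of CL2218.Contig2 summed to 56.6 RPKM, above every capsule sum, and that of CL10757.Contig1 to 11.1 RPKM, among the capsule sums. The place of the gametophyte also differed in clusters whose sum rose. That of CL698.Contig6 summed to 118.7 RPKM, above stages 1 to 4, and that of CL8476.Contig2 to 43.8 RPKM, above stages 1 to 3. Each of these members alone had a gametophyte value above stage 1 only. The cluster of CL7670.Contig1 summed to 58.7 RPKM, between stages 2 and 3.

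**Figure D5:**
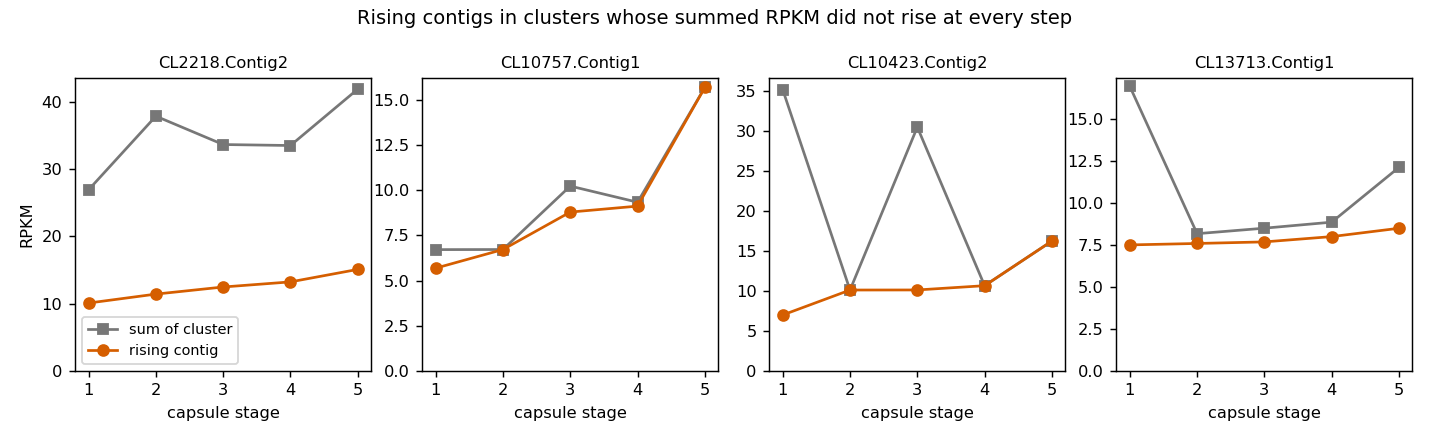
RPKM of the rising contig (orange circles) and summed RPKM of all listed contigs of its cluster (grey squares) over capsule stages 1 to 5, for the 4 clusters whose sum was not higher at every step. For CL10423 and CL13713 the sum is lower in stage 5 than in stage 1.

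Unigene25036 and Unigene25037 were the only members with consecutive identifier numbers. They were also the members whose second step was the largest in RPKM as deposited. In Unigene25036 this was a near tie, with 1.439-fold at the second step and 1.438-fold at the last. The counting intervals of these steps, 1.22 to 1.70 and 1.26 to 1.64, overlapped. Unigene25036 had 19.7, 21.3, 30.6, 35.4 and 50.9 RPKM and Unigene25037 had 35.9, 43.8, 62.7, 78.3 and 90.0 RPKM. The ratio of the second to the first stayed between 1.77 and 2.21 over the capsule stages and was 2.43 in the gametophyte. The sources used here do not say what consecutive numbers mean.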

How the data were processed

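Total RNA was extracted with TRIzol and sequenced on an Illumina HiSeq platform, per the labels' protocols. The deposited values are RPKM, per the file headers, 1 table per library, with a dash where no value is listed, read here as 0. The sources used here name no assembler, aligner or counting rule. A pooled sample was not analysed here.

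Library totals were worked back from the spacing of the most repeated low values, and each unigene's length as the smallest whole number from 200 to 15000 that turns all its values into whole reads, with a tolerance of 0.9 of the last printed digit. A multiple of a total would serve as well, and the smallest was taken. The recovered reads summed to between 96.1% and 99.7% of the totals. Step ratios have 95% exact conditional-binomial intervals, which cover counting error only. The read recovery and the limma fit were tested on simulated data, and the intervals were not. Recovery was exact for 99.5% of simulated unigenes. With the spread of the capsules, the fit called 0% of simulated log2 changes of 2, 12% of 4, 48% of 6 and 62% of 8. In that simulation 50 unigenes of 49648 were changed at each size, and the adjustment depends on how many unigenes differ. The fit of the data called Unigene22895 at a log2 fold change of 1.01. The simulated shares therefore do not say which sizes the fit of the data could call. A large difference could still go uncalled, as for Unigene23226 with a log2 fold change of 2.52.

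Capsules were compared with the gametophyte by limma 3.58.1 (R 4.3.3) on log2(RPKM + 1), its variance prior following the mean level, for unigenes reaching 1 RPKM in some library. P-values were adjusted by Benjamini-Hochberg over all unigenes tested, and 0.05 was the threshold. On this scale the fold changes of low unigenes are understated. The lone gametophyte is assumed to vary as the stages do, and nothing says that the capsules are separate samples of a group, so p-values reflect only how single libraries differ. TMM (trims of 30% and 5%) was computed from its definition.

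The members and the comparisons were chosen with earlier results of these data known. Named members are the 10 highest in mean, the 10 with the highest lower bound of the overall ratio, the largest at each step, the 3 highest and 3 lowest in the gametophyte relative to the capsules, those with all steps above counting error and those at the edges of the rule. Members named as called by limma, as held under the scalings or by their cluster were chosen after their values were seen.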

Additional observations from a re-analysis of the deposited data

How the results depend on the processing

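The number of unigenes with the rising order was 105 with a minimum mean of 1 RPKM, 14 with at least 1.1-fold at each step and 4 with every counting interval above 1, each by construction a wider or narrower rule. With a capsule stage left out it ranged from 238 to 587. The other alternatives gave 41 to 56. Fewer members were called by limma when only unigenes listed in all 6 libraries were tested. The lower call left was Unigene30398, whose direction the minimum mean fixed. The median log2 fold change of the members was 1.08 in both fits. The main adjustment also covered the unigenes missing from some library, so the calls of the members depend on those too. The cause of the loss was not tested. Limma-voom called 0 higher and 0 lower, with 8 at an unadjusted p under 0.05, 6 of them higher, and the cause was not tested. With a capsule stage left out, 7 to 13 were called higher and 1 to 2 lower. Over all unigenes, 3957 were higher with a pseudocount of 0.1. Tested among listed unigenes only, 155 were higher and 177 lower, and with limma-voom 938 and 82; the causes were not tested. TMM scaling moved the median log2 fold change of all unigenes from 0.24 to 0.05, and 5 members were then called higher and 2 lower. No called member changed direction under these alternatives. None of the 162 ratios of stage 5 to stage 1 after another scaling left its counting interval. Each scaling shifts this ratio equally for all members, and its factors for stages 1 and 5 were close. They were 0.946 and 0.906 for equal sums, 1.09 and 1.11 for TMM, and 1.09 and 1.11 for median ratios. The outcome was thus fixed by the factors and is no check on the members. No paired analysis was possible because every group is 1 library. Depth limits the short members, since 1 read stands behind the lowest capsule value.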
